A study of Mus musculus with 8 samples.

Results

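miR-1949 is a mouse microRNA that was measured in kidney RNA by 2 probes on an Agilent array, and it was chosen by its scaled intensity, which was higher on the tacrolimus arrays than on the control arrays. It is 1 of 1023 mouse miRNA names on the array and was found by its name, mmu-miR-1949. The RNA came from whole kidneys of outbred CD-1 mice that had received either physiological serum (control, 4 arrays) or tacrolimus, a calcineurin inhibitor, at a daily 1 mg per kg over 28 days (4 arrays). No other agent or allele is named in the labels. The labels do not say whether the replicates are separate mice, so the spread between arrays may be technical. Since the contrast of tacrolimus with control chose the miRNA, its levels are described here without a test.

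MicroRNAs are short RNAs that are excised from a hairpin in a longer transcript and guide Argonaute proteins to partly complementary messenger RNAs, most of which are then less stable or less translated. Many lie in introns of other genes and are made along with them. By the RefSeq gene table of GRCm38.p6, the gene Mir1949 lies within Snhg4, a long non-coding RNA gene of the small nucleolar RNA host class. The next genes on one side are Snora74a, a small nucleolar RNA, and Matr3, which encodes the nuclear matrix protein matrin 3. The array was designed on an older assembly, so no coordinates are given.

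Between 9.60% and 15.2% of mouse miRNA probes were detected per array, and the miRNA with its brightest probe detected on at least 4 of the 8 arrays was tested, which left 194. The tubule miRNAs miR-192-5p and miR-194-5p were detected on all 8 arrays, while the liver miRNA miR-122-5p was detected on 0. All 8 arrays were on 1 slide, with the control arrays in 1 row and the tacrolimus arrays in the other, so that the row on the slide and the treatment cannot be told apart. On tacrolimus 4 only 147 miRNAs were detected, the lowest number, and its negative control spots had an SD of 23.0, against 4.75 to 12.1 on the other 7 arrays. The software's additive error estimate was outside its accepted range on tacrolimus 4 (18.5) and within it on the other 7. Whole kidney is a mixture, so fewer or more cells of a type and less or more RNA per cell cannot be told apart.

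The longer probe, of 18 bases with 44.4% G and C, stood for miR-1949 in the comparisons and was detected on all 8 arrays. Its processed intensity, which is the spot brightness after background subtraction on a linear scale, was 115 on control 1, 73.8 on control 2, 65.0 on control 3 and 70.8 on control 4. In the tacrolimus kidneys it was 145, 173, 97.9 and 112 on arrays 1 to 4. Before any scaling, control 1 therefore lay above tacrolimus 3 and 4, and the groups overlapped. Control 1 was also the brightest array by the 75th percentile of the detected probes, at 2527, and control 3 the dimmest, at 1431.

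Each array was divided by that percentile and log2 was taken, so that 0 stands for the 75th percentile of the detected probes. On this scale miR-1949 was at -4.46 on control 1, -4.70 on control 2, -4.46 on control 3 and -4.62 on control 4. It was at -3.95 on tacrolimus 1, -3.72 on tacrolimus 2, -4.07 on tacrolimus 3 and -4.30 on tacrolimus 4. The lowest tacrolimus array thus lay 0.16 above the highest control array, and the groups did not overlap. Such a separation upward was seen for 8.25% of the 194 tested miRNAs, and a separation downward for 2.06%. The mean went from -4.56 ± 0.12 in control to -4.01 ± 0.25 in tacrolimus kidneys (SD, n = 4 arrays each), a log2 difference of 0.55 (SE 0.123) or 1.46-fold. The tacrolimus arrays spread wider than the controls, with tacrolimus 2 at the top and tacrolimus 4 nearest to the controls.

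**Figure D1:**
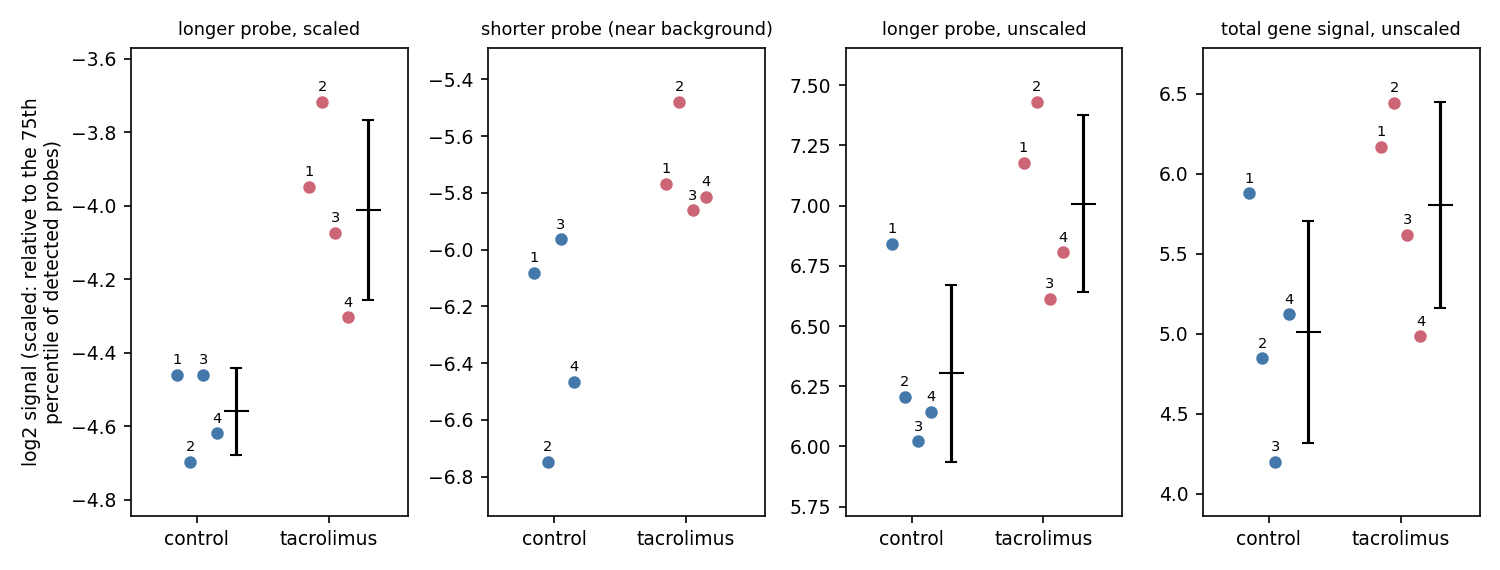
Level of miR-1949 on each array by 4 measures, on log2 axes that differ between panels. Points are arrays, labelled with the replicate number, and the bar beside each group is the mean with its SD (n = 4). With scaling the groups do not overlap on the longer probe. No mean is drawn for the shorter probe, which 0 control arrays detected. Without scaling control 1 lies among the tacrolimus arrays for the longer probe (115) and for the total gene signal (58.8).

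In order of scaled level, tacrolimus 2, 1, 3 and 4 came first, then control 1 and 3 together, control 4 and control 2. Neighbours in that order were close. Control 1 and control 3 both stood at -4.46, while tacrolimus 4 and the next array, control 1, were 0.16 apart, which is less than the SD of the tacrolimus group.

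**Figure D2:**
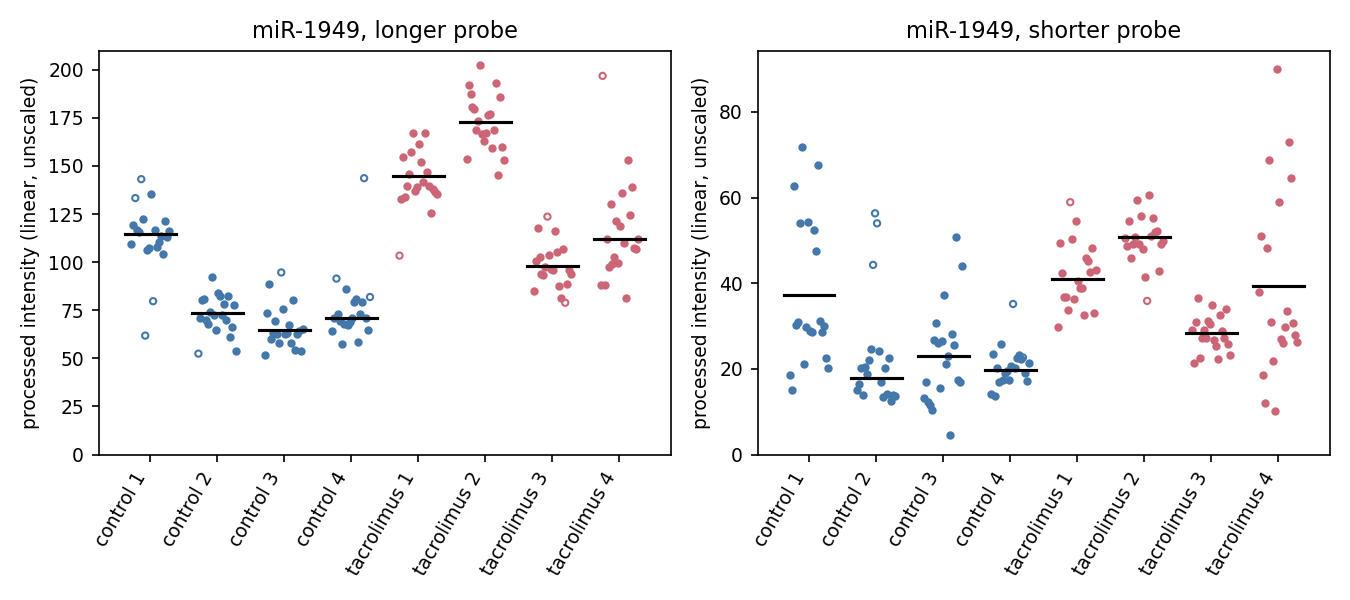
Processed intensity (linear, unscaled) of each of the 20 spots per probe of miR-1949 on the 8 arrays. Filled points are kept spots, open points are spots marked as outliers by the scanner software, and the line is the mean of the kept spots. The shorter probe scatters most on control 1, control 3 and tacrolimus 4.

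The array carries 20 spots of each probe, which show how well each array's value is known. Every kept spot of the longer probe was well above background on 7 arrays, and on tacrolimus 4 this held for 16 of 19 kept spots. The standard error of the mean over spots was between 1.85 and 4.32 intensity units, well under the range of array means within either group. Kept spots reached from 51.9 to 88.5 on control 3, where this probe was dimmest, and from 145 to 202 on tacrolimus 2, where it was brightest. At all 20 spot positions the mean scaled intensity was higher over the tacrolimus arrays than over the control arrays, with ratios of 1.27 to 1.63. Spots of the same probe share their RNA, so these positions are not replicates of the treatment. With spots of the upper part of the array the difference was 0.52, and with those of the lower part it was 0.56.

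The shorter probe, of 17 bases with 41.2% G and C, was close to background. It was well above background (on at least 0.5 of its kept spots) on 0 control and 3 tacrolimus arrays. Among its kept spots, 3 of 20 were well above background on control 1, 0 of 17 on control 2, 1 of 20 on control 3 and 0 of 18 on control 4. On tacrolimus 1, 2 and 3 the numbers were 16 of 19, 19 of 19 and 16 of 20, and on tacrolimus 4 it was 0 of 20. The scaled level without a floor was -6.08, -6.75, -5.96 and -6.46 on control 1 to 4, and -5.77, -5.48, -5.86 and -5.81 on tacrolimus 1 to 4. As no control array and not tacrolimus 4 measured this probe above background, the order of these values is not read and no fold or difference is given. Both probes target the same miRNA and share each array's RNA, so the shorter one is no independent support.

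The software's own summary of miR-1949, the total gene signal, which is also what the authors' deposited table holds, showed an overlap. It was 58.8, 28.7, 18.4 and 34.9 on control 1 to 4, and 72.0, 87.1, 49.2 and 31.7 on tacrolimus 1 to 4. These values give 35.2 ± 17.1 in control and 59.99 ± 24.5 in tacrolimus kidneys (SD, n = 4, unscaled). By this measure tacrolimus 3 lay below control 1, and tacrolimus 4 lay below control 1 and control 4. On control 2, control 3 and tacrolimus 4 the total equalled that of the longer probe alone, whereas on the other 5 arrays it was the sum of both probes. miR-1949 was called detected by the software on all 8 arrays.

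The local background around the spots was a measure that did not choose the miRNA. It had a median intensity of 27.6 ± 2.99 on control and 26.6 ± 1.90 on tacrolimus arrays (SD, n = 4, exact two-sided permutation p = 0.686, or 0.971 adjusted over the 3 technical measures planned). With 4 against 4 arrays no p below 0.0286 is possible. This local background is not the one that was subtracted to give the intensities. For the longer probe the subtracted background was 68.2 on control 1, 62.1 on tacrolimus 4 and 47.8 to 56.2 on the other arrays. Raw intensity was 2.16 (control 3) to 4.51 (tacrolimus 2) times as high. The subtracted background was not tested. Outlier marks decide which spots are averaged, and the spread over spots comes from the same intensities. Both measures entered the adjustment over the 3, but for that reason they are described here without a p. The share of its spots marked as outliers was 8.75% ± 4.33 and 3.75% ± 1.44, with ranges of 2.5% to 12.5% and 2.5% to 5%. The coefficient of variation over the longer probe's kept spots was 11.0% ± 3.25 and 10.9% ± 4.01.

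The difference of miR-1949 ranked sixth of the 194 by size, with 5 miRNAs above it. These were miR-342-3p at 1.07, miR-214-3p at 0.69, miR-142a-3p at 0.64, miR-223-3p at 0.61 and miR-142a-5p at 0.55, the last of which was chosen after its value was seen. Of these 5, 4 stand in the list of leukocyte miRNAs, to which 8 of the 194 tested miRNAs belong. For each of these 4 the groups overlapped. The largest difference, that of miR-342-3p, had an SE of 0.487, and this miRNA was detected on only 6 arrays. miR-214-3p is made from Dnm3os, a non-coding transcript. Among the 4, miR-142a-3p and miR-142a-5p are arms of the same hairpin and thus not independent. Over all tested miRNAs the median difference was 0.04.

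In limma with Benjamini-Hochberg adjustment over all 194 miRNAs, 3.09% passed a threshold of 0.05, all of them higher after tacrolimus. miR-1949 was among these 6, which is given as a description only, since the same contrast chose it. The other 5 were miR-214-3p, miR-574-5p (0.50), miR-199a-5p (0.47), miR-199b-5p (0.50) and miR-199a-3p (0.49), each with an adjusted p of 0.0478. Of these, miR-574-5p was detected on only 6 arrays, and its control mean (-5.62) lay near the floor of -5.96. Blocking on the arrays' column of the slide (the same as their replicate number) left 0 calls in limma, with a lowest adjusted p of 0.0619 and 31 miRNAs at an unadjusted p under 0.05. With any of the 8 arrays left out miR-1949 was no longer among the calls, while its difference stayed between 0.45 (without tacrolimus 2) and 0.58 (without control 1).

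Over the 8 arrays, the profiles nearest to that of miR-1949 were those of miR-199b-5p, miR-199a-3p, miR-21a-5p, miR-574-5p, miR-146a-5p and miR-466i-5p. Likeness was taken as the root mean square of the difference between 2 profiles of scaled log2 intensity, each centred on its own mean. For miR-199b-5p it was 0.122 and for miR-199a-3p 0.133. For miR-21a-5p, an abundant miRNA that is raised in many injured and fibrotic tissues, it was 0.134, and for miR-574-5p 0.143. miR-146a-5p, which NF-kappaB induces, stood at 0.150 and miR-466i-5p at 0.159. The median over the other tested miRNAs was 0.321. miR-1949 itself spread by 0.321 around its mean, so a flat profile would also lie about that far from it. All 6 had a difference above 0, from 0.32 for miR-146a-5p to 0.50 for miR-574-5p, and as the treatment difference enters the profile, the order partly repeats that of the differences.

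**Figure D3:**
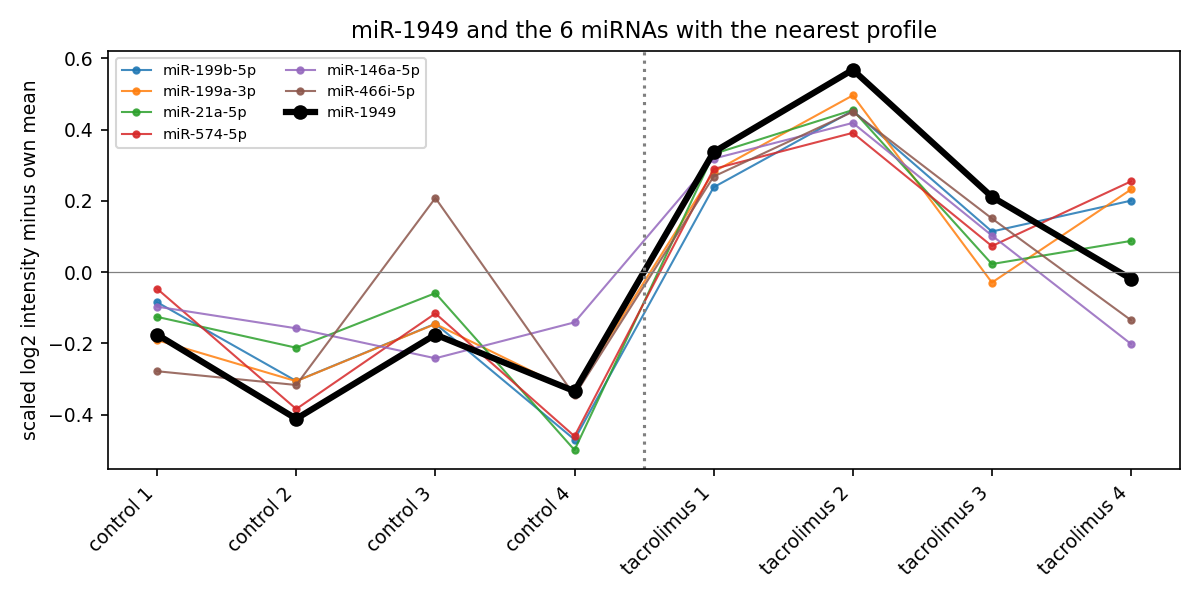
Scaled log2 intensity minus each miRNA's own mean over the 8 arrays, for miR-1949 (black) and the 6 tested miRNAs with the nearest profiles. The lines only connect the arrays, which have no order within a group. All 7 are high on tacrolimus 1 and 2, whereas on tacrolimus 4 miR-1949 (-0.02) lies between miR-146a-5p (-0.20) and miR-574-5p (0.25).

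With each group centred on its own mean, which removes the treatment difference, the nearest profiles were those of miR-3470a (0.0919), miR-146a-5p (0.0967), miR-203-3p (0.108) and miR-340-5p (0.115), against a median of 0.181. miR-146a-5p was thus near by both measures. miR-3470a had a difference of -0.04, miR-203-3p of 0.13 and miR-340-5p of 0.09, and none of the 3 passed the threshold (adjusted p 0.899, 0.533 and 0.643 in limma). Within groups, miR-340-5p spread by only 0.0898 and miR-203-3p by 0.0977, against 0.167 for miR-1949. A flat profile would thus lie 0.167 from miR-1949 by this measure. miR-3470a was detected on 6 arrays, and its value on tacrolimus 4 (-5.96) is the floor, which sets its dip there.

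Values of blood cell miRNAs stand beside those of miR-1949. Of 9 leukocyte miRNAs, 8 were tested, and all 8 lay above 0, as did 115 of all 194 tested miRNAs. The median difference of these 8 was 0.45. In limma 0 passed the threshold, where 3.09% of all tested miRNAs passed. On 0 of the 8 did every tacrolimus array lie above every control array, where 8.25% of all tested miRNAs showed this. In a list of 8 that is no departure from the share over all miRNAs. miR-142a-3p and miR-142a-5p are arms of the same hairpin, so they are not independent of each other. The mean of these 8 ranged from -4.15 to -3.47 on control and from -3.71 to -3.21 on tacrolimus arrays. Its defining members miR-223-3p, of myeloid cells, and miR-142a-3p, of all blood lineages, were detected on all 8 arrays. Of 4 erythrocyte miRNAs, 3 were tested, 0 passed and the median was -0.67, with miR-451a, the main miRNA of red cells, at -0.67. Their mean ranged from -2.96 to -1.49 on control and from -3.01 to -2.61 on tacrolimus arrays. The part of blood cells in the difference of miR-1949 was not tested.

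**Figure D4:**
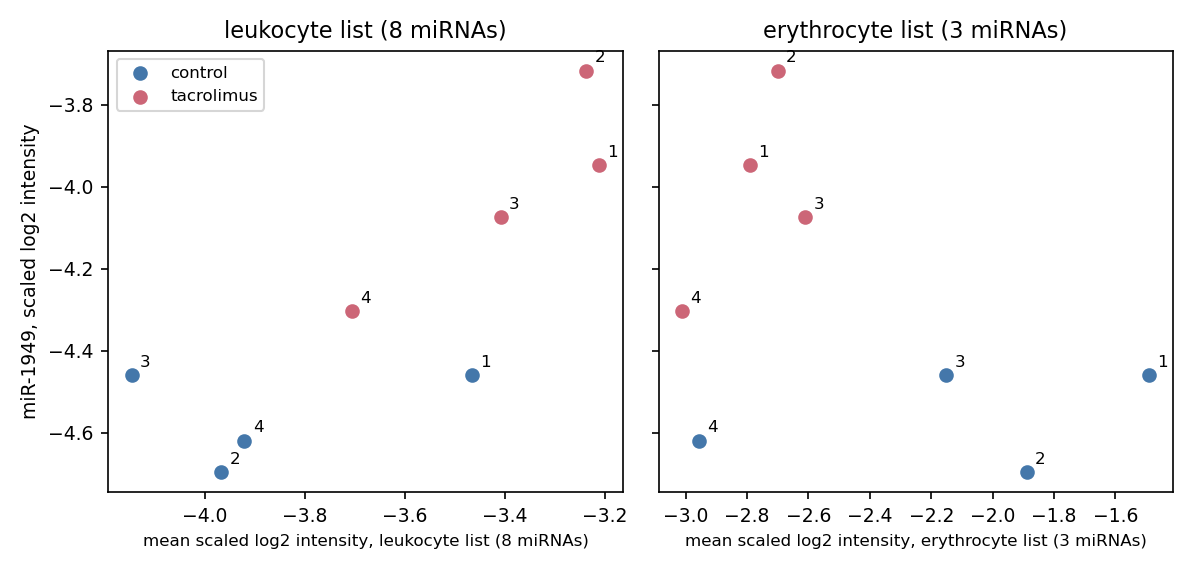
Scaled log2 intensity of miR-1949 against the mean of the 8 tested leukocyte miRNAs (left) and the 3 tested erythrocyte miRNAs (right), 1 point per array with its replicate number. The leukocyte means range from -4.15 to -3.47 on control and from -3.71 to -3.21 on tacrolimus arrays.

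For miRNAs of the kidney's own cells no member passed either, where 3.09% of all tested miRNAs did. In lists this short, 0 calls say little about a cell type. Of 11 tubule miRNAs 10 were tested, 0 passed and the median was 0.08, with miR-192-5p at 0.13, miR-194-5p at 0.14 and miR-204-5p at 0.34. The endothelial miR-126a-3p stood at -0.03 and miR-126a-5p at 0.06, and the smooth muscle miR-143-3p at 0.03 and miR-145a-5p at -0.08. The lists of both cell types had 0 of 2 members past the threshold. The endothelial median (0.01) fell below 0 with median scaling (-0.06), and the smooth muscle median (-0.02) lay above 0 without scaling (0.13), while the tubule median was 0.01 with median scaling and -0.05 without tacrolimus 4 (-0.07 without control 1 as well). None of these lists has a settled direction.

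Other miRNAs from non-coding host genes had a median difference near that of all miRNAs. By name, 185 of the 194 tested miRNAs matched a miRNA gene in RefSeq, and apart from miR-1949 44 had a gene copy within a long non-coding RNA gene, on either strand. Of these 44, 3 rose and 0 fell in limma, where 3.09% of all tested miRNAs were called, and their median difference was 0.05, or -0.02 with median scaling. The 3 were miR-214-3p, miR-199a-3p and miR-199a-5p, all with a gene within Dnm3os, so they are not independent of each other. The other tested miRNA from a small nucleolar RNA host gene was miR-3069-3p, within Snhg10. This dim miRNA was above background on 2 arrays of the control and 3 of the tacrolimus group, and its scaled level was -5.71 ± 0.14 and -5.70 ± 0.19 (SD, n = 4 each), a difference of 0.02 that did not pass (adjusted p = 0.944, limma).

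With normexp, which changes the background model and also adds an offset of 50, the difference of miR-1949 was 0.22 and the groups overlapped. What each of these changes contributed was not tested. Over the 25 alternative settings run for the longer probe or the total signal the difference was above 0 each time, from 0.22 to 0.79. The groups did not overlap in 20. Changes of filter or floor, the mean of detected probes and the block left the values of miR-1949 as they were. Leaving out arrays removed values from groups that were already apart. The 20 is thus no count of independent checks.

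**Figure D5:**
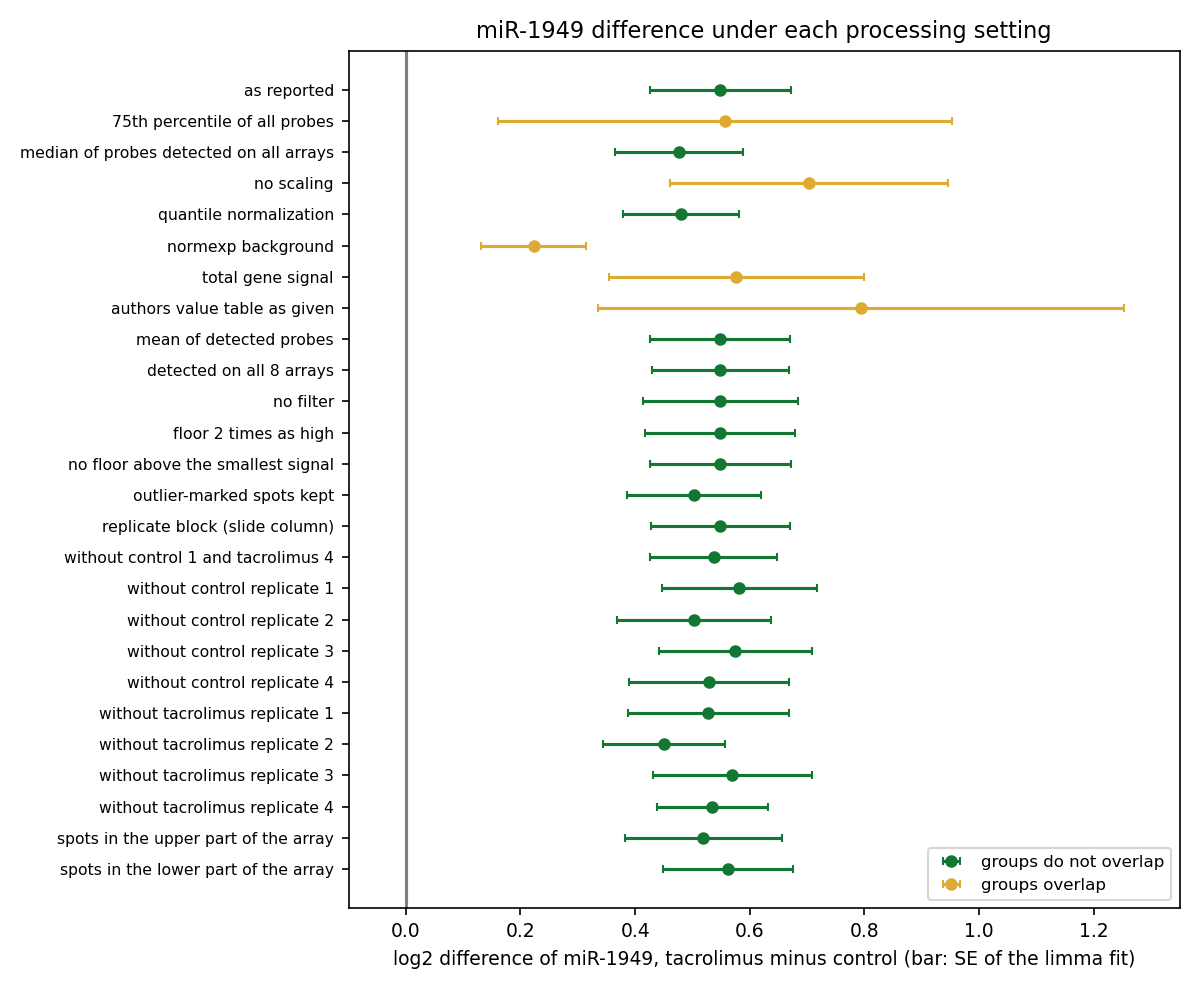
Log2 difference of miR-1949 between tacrolimus and control (x axis) under each processing setting (y axis), with the SE of the limma fit as bars. Green settings have no overlap between the groups and yellow ones do. All values lie above 0, with normexp (0.22) lowest and the authors' table as given (0.79) highest.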

How the data were processed

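Kidney RNA (0.1 µg per array, RNA integrity number 9, per the labels) was measured on 1-colour Cy3 arrays. The kit the labels name for labelling (Low RNA input QuickAmp) is made for mRNA, and the sources used here do not give how miRNA was labelled. The authors deposited Feature Extraction 10.7.3.1 output, whose values are spot intensities with background and spatial trend subtracted and no scaling between arrays, per the file headers. The value table the authors deposited equals the total gene signal for 100% of its cells (tolerance 1e-06). The submitters' processing notes name limma. The genome build of the design is mm9.

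In R 4.3.3 (limma 3.58.1), the spots that the software had marked as outliers (7.36% to 11.2% per array) were dropped and the others averaged per probe. No spot was saturated (0). Detection of a probe needed at least 0.5 of the kept spots to be well above background. Each array was divided by the 75th percentile over the 252 probes that all 8 arrays detected, a floor was set at -5.96 (log2), and the brightest probe stood for its miRNA. limma used lmFit and eBayes without covariates (9.16 degrees of freedom). Steps were tested on simulated data, the outcome of which is not reported here. This fit did not use replicate numbers as pairs, and the correlations of same-numbered samples do not settle whether they are.

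Named besides miR-1949 are, by rule, the 6 nearest profiles, the 4 nearest within groups, other calls, and called members or the 2 largest differences and first marker of each list. The member and the lists were chosen with earlier results of these data known. The seed and mature sequence of miR-1949 were not analysed here. In the striated muscle list 0 of 3 miRNAs were tested. The number of arrays limits the precision.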

Additional observations from a re-analysis of the deposited data

Results flagged for a closer look

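Among 50 sets of 4 arrays, those of the 25 miRNAs named, 3 held an array far from the other 3, where chance flags about 1 in 20 groups, or 2.5. None of the 3 was in miR-1949. For miR-466i-5p, control 3 exceeded the mean of the remaining controls by 0.52 (log2). Tacrolimus 4 differed from the mean of the other tacrolimus arrays by -0.25 for miR-340-5p and by -0.39 for miR-451a.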

How the results depend on the processing

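The difference of miR-1949 (0.55) was above 0 in the 25 alternative settings that gave a value and moved by more than the spread between arrays in 2, being 0.22 with normexp and 0.79 with the authors' table as given. The settings of filter, floor, probe mean and block could not change it. For the planned use of the shorter probe no difference is given, since its control values are all at the floor. The groups overlapped in 5, namely scaling to all probes, no scaling, normexp, total gene signal and the authors' table. Leaving out each array gave 0.45 to 0.58. The count of limma calls (6 higher, 0 lower) was 0 with scaling to all probes, no scaling, total gene signal, the authors' table, the mean of probes, no filter, a floor 2 times as high, no floor, outlier-marked spots kept, trend and robust estimation, and without control 1 and tacrolimus 4. In those settings 1 to 37 miRNAs had an unadjusted p under 0.05. It was 2 with quantile normalization, 1 with normexp, and 0 to 7 with each array left out. Median scaling gave 8, 6 higher and 2 lower. miR-1949 was among the calls in 2 of the 25 settings, median scaling and detection on all 8 arrays. With the replicate number, which equals slide column, as a block, the count was 0 (31 at an unadjusted p under 0.05) and the difference stayed at 0.55. Same-numbered samples correlated at 0.0994 to 0.135 over the 194 miRNAs, and not every sample correlated best with its own number. In the values as reported 20 miRNAs had groups without overlap, against 0 with scaling to all probes or the authors' table, 1 without scaling, 12 with normexp, 48 without control 1 and tacrolimus 4, and 21 to 30 with 1 array left out. The median difference of all tested miRNAs was 0.04 as reported and 0.19 without scaling or with the authors' table, where miR-1949 stood at 0.70 and 0.79. The leukocyte median stayed above 0 (0.21 to 0.67) and the erythrocyte median below 0 (-0.94 to -0.45). The cause of these changes was not tested. Signal over background limits the shorter probe most.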
